A study of Mus musculus with 9 samples.

Results

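The antiviral interferon-stimulated effectors are the genes whose products act on a virus or on infected RNA inside the cell: RNA-binding IFIT proteins, oligoadenylate synthetases, Mx GTPases, viperin, the ISG15 system, RNA sensors and membrane or nuclear restriction factors. They were taken as the 38 named genes of a list, matched by gene symbol to the count table, and all 38 of them were found among its 51826 genes. All 38 passed the filter on low counts, which left 14458 genes for testing. The cells were RAW 264.7, an established mouse macrophage line that carries Abelson leukaemia virus. Treatment is the only difference between the groups that the labels give. Cells of the calycosin plus LPS group received 100 µg/mL calycosin, an isoflavone, for 24 h and were then given 300 ng/mL lipopolysaccharide (LPS) for 6 h. Cells of the LPS group received 300 ng/mL LPS for 6 h without calycosin, and cells of the vehicle group received neither. Each group had 3 libraries of polyadenylated RNA, and no group was given calycosin without LPS, so the effect of calycosin in resting cells was not measured.

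LPS is the outer membrane glycolipid of Gram-negative bacteria. It is delivered by CD14 to its receptor TLR4, and from endosomes TLR4 signals through the adaptors TRAM and TRIF to the kinase TBK1 and the factor IRF3, which switches on the interferon beta gene. Secreted interferon beta then binds its receptor on the same and neighbouring cells, and the kinases JAK1 and TYK2 activate a factor complex, ISGF3, which contains STAT2 and IRF9. ISGF3 binds the interferon-stimulated response element (ISRE) in the promoters of antiviral genes, and IRF7, itself one of the induced genes, amplifies the loop. In macrophages exposed to LPS, many antiviral genes are therefore known to respond to the interferon that the cells release. Whether members were induced here without released interferon was not tested.

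Total counts per library ran from 27784737 to 38524105. Levels below are CPM, counts scaled to a library size that was adjusted with TMM factors (0.786 to 1.42), a scaling that takes most genes as equal between libraries. Levels of different genes are compared only in the deposited TPM, which also correct for length. Vehicle replicate 3 and calycosin plus LPS replicate 2 stood apart from their groups: mitochondrial genes took 17.2%, 7.45% and 19.4% of counts in calycosin plus LPS libraries, 14.1%, 14.7% and 13.0% in LPS libraries, and 3.79%, 3.68% and 21.9% in vehicle libraries. Counts of called members are given with and without these libraries, and so are the values of some genes. All 9 macrophage marker genes matched (among them Adgre1, Cd68, Csf1r and Lyz2) were detected in every library, with a summed level of 2976 to 3783 CPM with calycosin plus LPS, 3828 to 4019 CPM with LPS and 4506 to 5068 CPM with vehicle. Of 17 markers of other cell types, 11 to 13 were at 0 in a library, and their summed level was 1.64 to 2.32 CPM with calycosin plus LPS, 5.53 to 9.42 CPM with LPS and 1.22 to 1.43 CPM with vehicle. In bulk RNA, fewer responding cells and less RNA per responding cell cannot be told apart. The labels number the libraries of a group as biological replicates without saying whether they came from separate cultures or days, so p-values measure the spread between these libraries, which may be technical.

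The 38 genes lie on 13 chromosomes, and several sit in clusters of related genes (positions from GENCODE M21, GRCm38). The 6 Ifit genes occupy one stretch of chromosome 19, in the order Ifit2 (chr19:34550694-34576419, plus strand), Ifit3 (chr19:34583531-34588731, plus), Ifit1bl1 (chr19:34592891-34601956, minus), Ifit3b (chr19:34607970-34613401, plus), Ifit1bl2 (chr19:34617049-34640743, minus) and Ifit1 (chr19:34640871-34650009, plus). Chromosome 5 holds the 6 oligoadenylate synthetase genes and chromosome 16 holds Mx1, Mx2, Parp14, Dtx3l, Parp9 and Rtp4. Rsad2 (chr12:26442746-26456452, minus) and Cmpk2 (chr12:26469204-26479837, plus) are neighbours that point away from each other, 12751 bases apart. Dtx3l and Parp9 overlap by 682 bases on opposite strands.

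The ISRE is the sequence through which ISGF3 is known to act, so promoters of members that carry its core are shown, with the core in capitals. The core searched was GAAANNGAAA on both strands (on the other strand it reads TTTC, any 2 bases, TTTC), in the 250 bases before the start, taken from RefSeq (GRCm38.p6). Of the 38 genes, 29 matched the promoter table, and 11 of these (37.9%) had at least 1 core, against 936 of 27025 genes (3.46%) in the whole table. The 11 are Bst2, Ifit1, Ifit1bl1, Ifit1bl2, Ifit3, Ifit3b, Isg15, Oas1a, Oas1g, Oas3 and Rsad2. A gamma-activated site, written TTCNNNGAA, stood in 5 of the 29 (17.2%) and in 8.13% of all genes. The 200 bases upstream of 5 members, in the direction of their own transcription, and the stretch between the bodies of Ifit1bl2 and Ifit1 read as follows.
Isg15, chr4:156200819-156201018, minus strand: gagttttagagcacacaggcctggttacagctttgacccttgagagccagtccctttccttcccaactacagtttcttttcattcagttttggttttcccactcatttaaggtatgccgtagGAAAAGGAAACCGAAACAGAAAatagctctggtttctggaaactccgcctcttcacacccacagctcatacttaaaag
Rsad2, chr12:26456453-26456652, minus strand: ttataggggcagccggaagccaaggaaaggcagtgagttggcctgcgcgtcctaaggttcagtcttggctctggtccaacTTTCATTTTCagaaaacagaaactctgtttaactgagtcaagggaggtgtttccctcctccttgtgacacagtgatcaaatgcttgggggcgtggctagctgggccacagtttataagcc
Ifit3, chr19:34583329-34583528, plus strand: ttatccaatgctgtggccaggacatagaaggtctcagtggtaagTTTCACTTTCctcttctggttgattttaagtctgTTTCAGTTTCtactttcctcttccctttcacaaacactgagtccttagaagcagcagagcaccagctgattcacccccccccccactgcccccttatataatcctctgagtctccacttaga
Ifit3b, chr19:34607757-34607956, plus strand: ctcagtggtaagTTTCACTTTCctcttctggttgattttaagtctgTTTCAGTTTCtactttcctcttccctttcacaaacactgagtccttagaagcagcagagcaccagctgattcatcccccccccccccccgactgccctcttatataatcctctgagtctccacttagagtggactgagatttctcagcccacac
Ifit1bl1, chr19:34601969-34602168, minus strand: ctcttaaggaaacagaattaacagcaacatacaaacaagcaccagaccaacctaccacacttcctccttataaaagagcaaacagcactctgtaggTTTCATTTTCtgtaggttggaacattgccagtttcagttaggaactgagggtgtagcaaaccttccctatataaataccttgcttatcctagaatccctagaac
Ifit1bl2 to Ifit1, chr19:34640744-34640870, plus strand: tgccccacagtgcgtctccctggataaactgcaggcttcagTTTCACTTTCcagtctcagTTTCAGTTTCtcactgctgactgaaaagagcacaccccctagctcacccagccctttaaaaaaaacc
In Isg15 the capitals are 3 overlapping cores. Ifit3 and Ifit3b, duplicates of each other, carry the same pair of cores in upstream sequences that were identical at 166 of 168 aligned bases (98.8%). Ifit1bl2 and Ifit1 point away from each other across 127 bases, and that stretch holds 2 cores. RefSeq lists a second start of Ifit1bl2 inside the gene, away from Ifit1, and the window before it held no core.

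With LPS alone, all 38 genes rose against vehicle (edgeR quasi-likelihood test, Benjamini-Hochberg adjusted p below 0.05), where 27.3% of all genes tested were called higher and 28.9% lower. The median log2 fold change of the 38 was 5.37, against -0.07 over all genes tested. In 29 of them the rise was at least 10-fold and in 12 at least 100-fold. In all 38 the 3 LPS libraries lay above the 3 vehicle libraries in CPM. In deposited TPM, Ifitm3 overlapped, with 1429, 1315 and 1055 TPM with LPS, against 1251, 1260 and 557 TPM with vehicle. For counts at 10-fold, at 100-fold or within 1.5-fold, and for overlap, here and below, no share over all genes tested was taken. Summed over the 38 genes, the share of library counts was 2.70% in each LPS library, against 0.201%, 0.203% and 0.161% in vehicle libraries. By deposited TPM, 9 of the 38 genes averaged below 1 TPM with vehicle and none did with LPS, where 35 averaged at least 100 TPM.

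**Figure D1:**
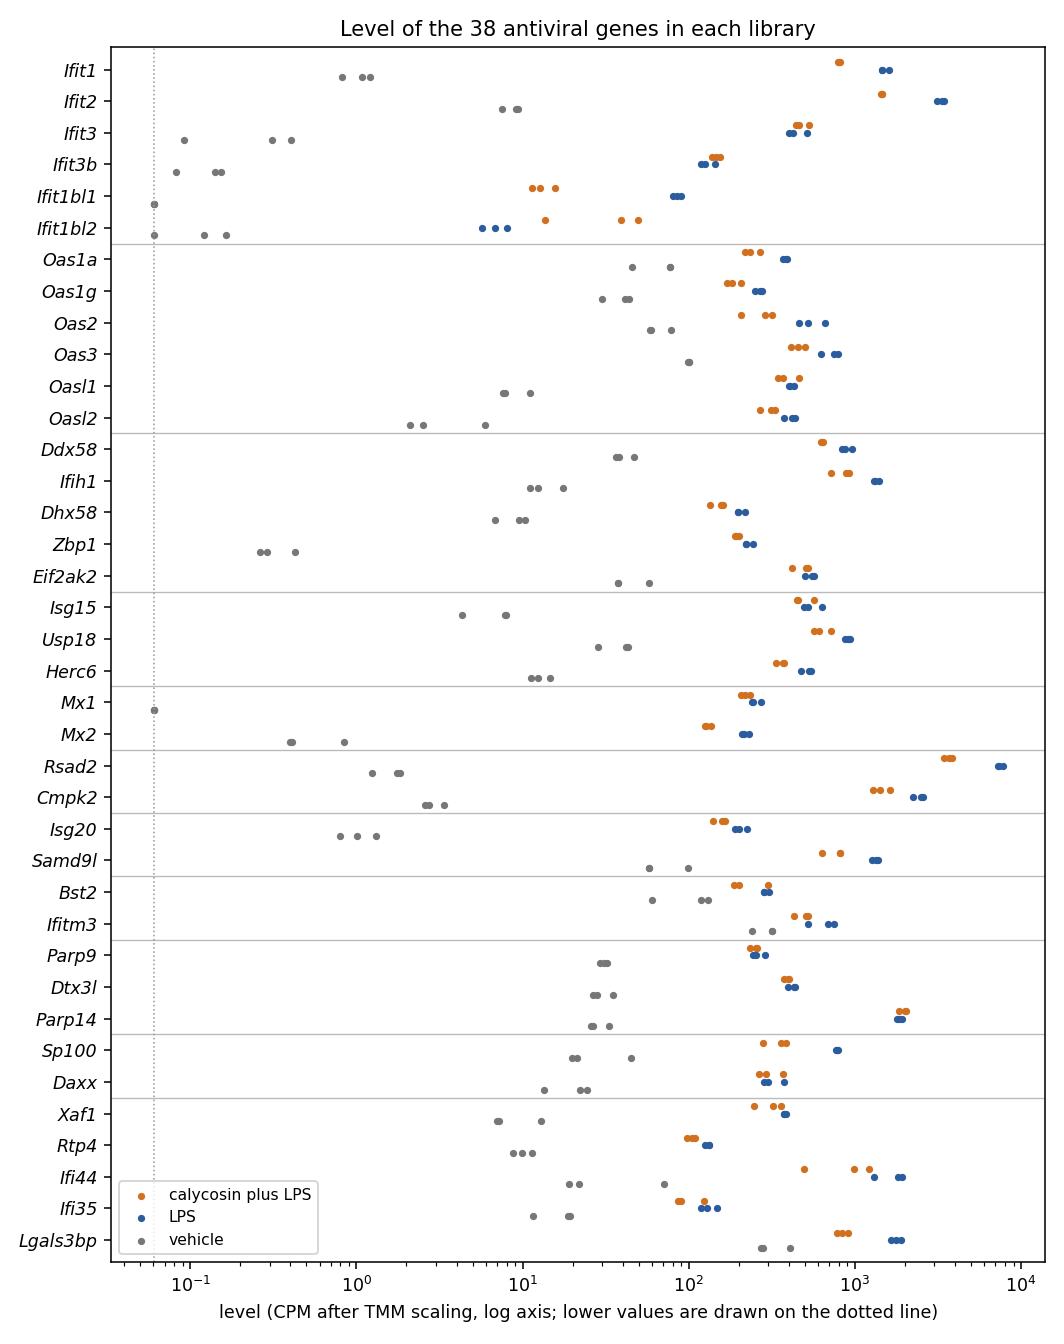
Level of each of the 38 genes (rows, grouped by role) in each library, in CPM after TMM scaling on a log axis, with points for the 3 calycosin plus LPS, 3 LPS and 3 vehicle libraries. Both treated groups lie to the right of vehicle for every gene, by the widest margin for Mx1 and by the narrowest for Ifitm3.

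The largest rises were in genes that resting cells hardly expressed. Mx1, of the Mx GTPase family, had 240, 243 and 271 CPM in LPS libraries, against 0, 2 and 0 counts in vehicle libraries. Its ratio of group counts was 16529 (95% counting interval 4575 to 136499). Whether this RNA gives a working protein in this line was not tested. Rsad2, which encodes viperin, a radical SAM enzyme that makes the chain terminator ddhCTP, had 7380, 7734 and 7245 CPM in LPS libraries, against 1.83, 1.75 and 1.25 CPM in vehicle libraries (log2 fold change 12.17, SE 0.27, edgeR adjusted p = 1.9e-09). Ifit1bl1, a mouse paralog of Ifit1, had 79.9, 84.8 and 89.7 CPM in LPS libraries and 0, 2 and 2 counts in vehicle libraries, a ratio of 2789 (1089 to 10239). These 3 genes had no overlap between LPS and vehicle libraries, and intervals and floors of this kind cover counting error only.

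A further 3 Ifit genes completed the 6 largest rises. Ifit3 had 400, 422 and 514 CPM in LPS libraries, against 0.402, 0.308 and 0.0912 CPM in vehicle libraries (log2 fold change 10.60, SE 0.34, edgeR adjusted p = 1.25e-08). Ifit1, which binds RNA whose cap lacks ribose methylation, had 1463, 1457 and 1595 CPM with LPS, against 1.08, 1.21 and 0.821 CPM with vehicle (10.48, SE 0.20, adjusted p = 1.36e-09). Ifit3b had 118, 125 and 143 CPM with LPS and 0.141, 0.0822 and 0.152 CPM with vehicle, from 16 counts over the vehicle group, and a ratio of group counts of 1060 (652 to 1855). Each of the 3 was close to absent in resting cells, and no LPS library overlapped a vehicle library.

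Ranked by TPM in LPS libraries, Rsad2 stood first, and no other member overlapped it. Rsad2 averaged 2405 ± 57.9 TPM with LPS and 0.999 ± 0.462 TPM with vehicle (SD, n = 3 each). The next places were held by Ifitm3 at 1266 ± 192 TPM, Ifit2 at 1136 ± 74.7 TPM and Cmpk2 at 1020 ± 43.9 TPM with LPS, and from place 2 through place 9 the libraries of neighbours in this order overlapped. Ifit1bl2 was last, at 2.73 ± 0.546 TPM with LPS. Ifitm3, which hinders fusion of virus with endosomal membranes, and Bst2 (tetherin), which holds budding virions at the cell surface, started high: Ifitm3 had 1251, 1260 and 557 TPM in vehicle libraries.

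These membrane factors also had the smallest rises of the 38. Ifitm3 had 748, 689 and 524 CPM in LPS libraries, against 314, 316 and 240 CPM in vehicle libraries (log2 fold change 1.17, SE 0.17, edgeR adjusted p = 0.00029), and Bst2 rose by 1.49 (SE 0.28, adjusted p = 0.0014). Both calls depended on how libraries were scaled: neither passed with library totals in place of TMM, which moved the median of all genes to -0.77 on the log2 scale, or with deposited TPM. The other 36 rises passed under every alternative run.

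By role, the 6 IFIT genes had the largest median log2 fold change of the groups with more than 2 genes (10.24), and the 6 oligoadenylate synthetases the smallest (2.95), for LPS against vehicle. Within that family, Oasl2 and Oasl1, which encode ubiquitin-like members, rose by 6.88 and 5.54, and Oas1a, Oas1g, Oas2 and Oas3 by 2.52 to 3.06. Among the sensors, Zbp1, which detects Z-form nucleic acid and triggers cell death, rose by 9.48, Ifih1 (MDA5) by 6.62, Dhx58 (LGP2) by 4.51, Ddx58 (RIG-I) by 4.46 and Eif2ak2 (the kinase PKR) by 3.61. Isg15, a ubiquitin-like modifier, rose by 6.35, Herc6, its ligase in mice, by 5.34 and Usp18, the protease that removes it, by 4.58.

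With calycosin before LPS, all 38 genes were still above vehicle (edgeR adjusted p below 0.05), where 25.4% of all genes tested were called higher and 23.6% lower. Their median log2 fold change over vehicle was 4.71, against 5.37 for LPS alone, and 29 of the 38 were again at least 10-fold above vehicle. The 2 medians share the vehicle libraries, so they are given side by side without a test. In CPM, no calycosin plus LPS library overlapped a vehicle library in any of the 38 genes. In deposited TPM, Ifitm3 and Bst2 did overlap. Ifitm3 had 982.5, 1601 and 1040 TPM with calycosin plus LPS, against 1251, 1260 and 557 TPM with vehicle. Bst2 had 378, 811 and 364 TPM with calycosin plus LPS, against 411, 452 and 121 TPM with vehicle. The smallest rise was that of Ifitm3, with 429, 519 and 504 CPM in calycosin plus LPS libraries, a log2 fold change of 0.74. As with LPS alone, Ifitm3 and Bst2 lost the call with library totals and with deposited TPM, and Oas1a lost it with TPM when no filter on low values was used (adjusted p = 0.0577). With both libraries that stand apart left out, all 38 rises over vehicle passed, for LPS and for calycosin plus LPS.

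**Figure D2:**
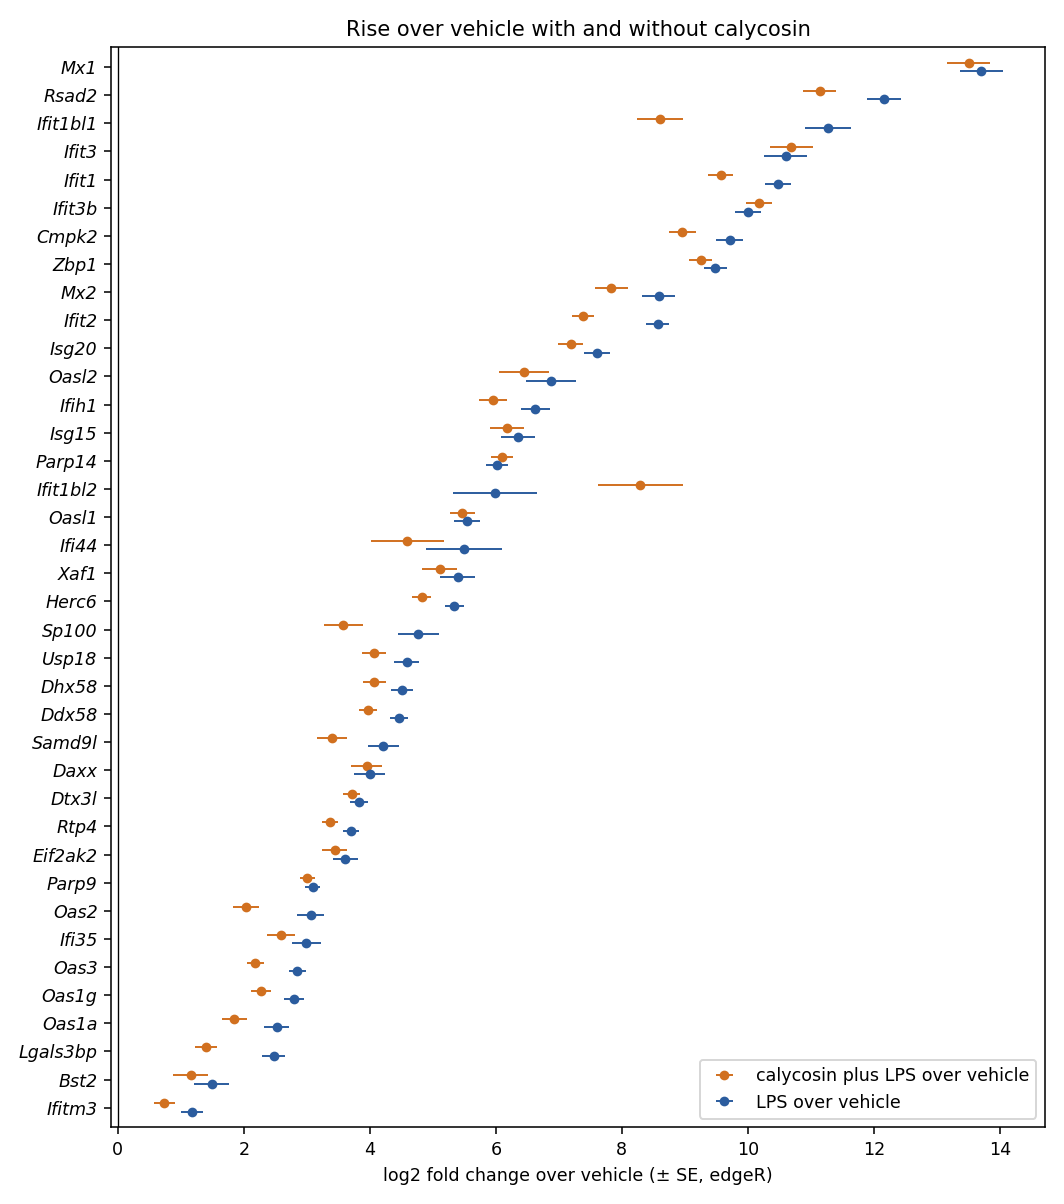
Log2 fold change over vehicle with its SE for calycosin plus LPS (orange) and for LPS (blue), 1 row per gene, ordered by the LPS value. Ifit1bl1 stands far lower with calycosin plus LPS and Ifit1bl2 higher, while both values of Mx1 rest on 2 counts in the vehicle group.

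The direct comparison of calycosin plus LPS with LPS asks what the pretreatment changed in this response. Of the 38 genes, 17 (44.7%) were lower, 1 (2.63%) was higher and 20 did not pass the test, against 12.9% lower and 16.1% higher among all genes tested. Among the 1939 genes with a mean of at least 100 CPM over all libraries, 33.0% were called lower and 4.02% higher. Of the 33 members in that range 16 were lower and 0 higher. That mean takes in the libraries compared, so genes high with LPS enter the range more readily. Mx2, at 0.55 CPM with vehicle and 217 CPM with LPS, reached it through the treated libraries. Changes were mostly modest: 6 members fell and 1 rose by at least 2-fold, against 4.42% and 7.05% of all genes in those directions, and 23 of the 38 lay within 1.5-fold either way. The median log2 fold change was -0.44, against 0.02 over all genes tested. Summed over the 38 genes the level was 21099 ± 517 CPM with calycosin plus LPS and 33897 ± 637 CPM with LPS (SD, n = 3 each). Their share of library counts was 1.94%, 2.32% and 1.94%, against 2.70% in each LPS library. In deposited TPM the groups overlapped: the sum was 12558, 17968 and 12057 with calycosin plus LPS, against 17045, 16834 and 17284 with LPS. Genes outside the set fell as well: of the 9 macrophage markers, 4 were lower and 0 higher with calycosin plus LPS (Ptprc at -0.81, Tyrobp at -0.77, Fcgr3 at -0.76 and Lyz2 at -0.58), and of 8 housekeeping genes 3 were lower and 0 higher, with Actb at -1.56 (edgeR adjusted p below 0.05). Their part in the members' levels was not tested.

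**Figure D3:**
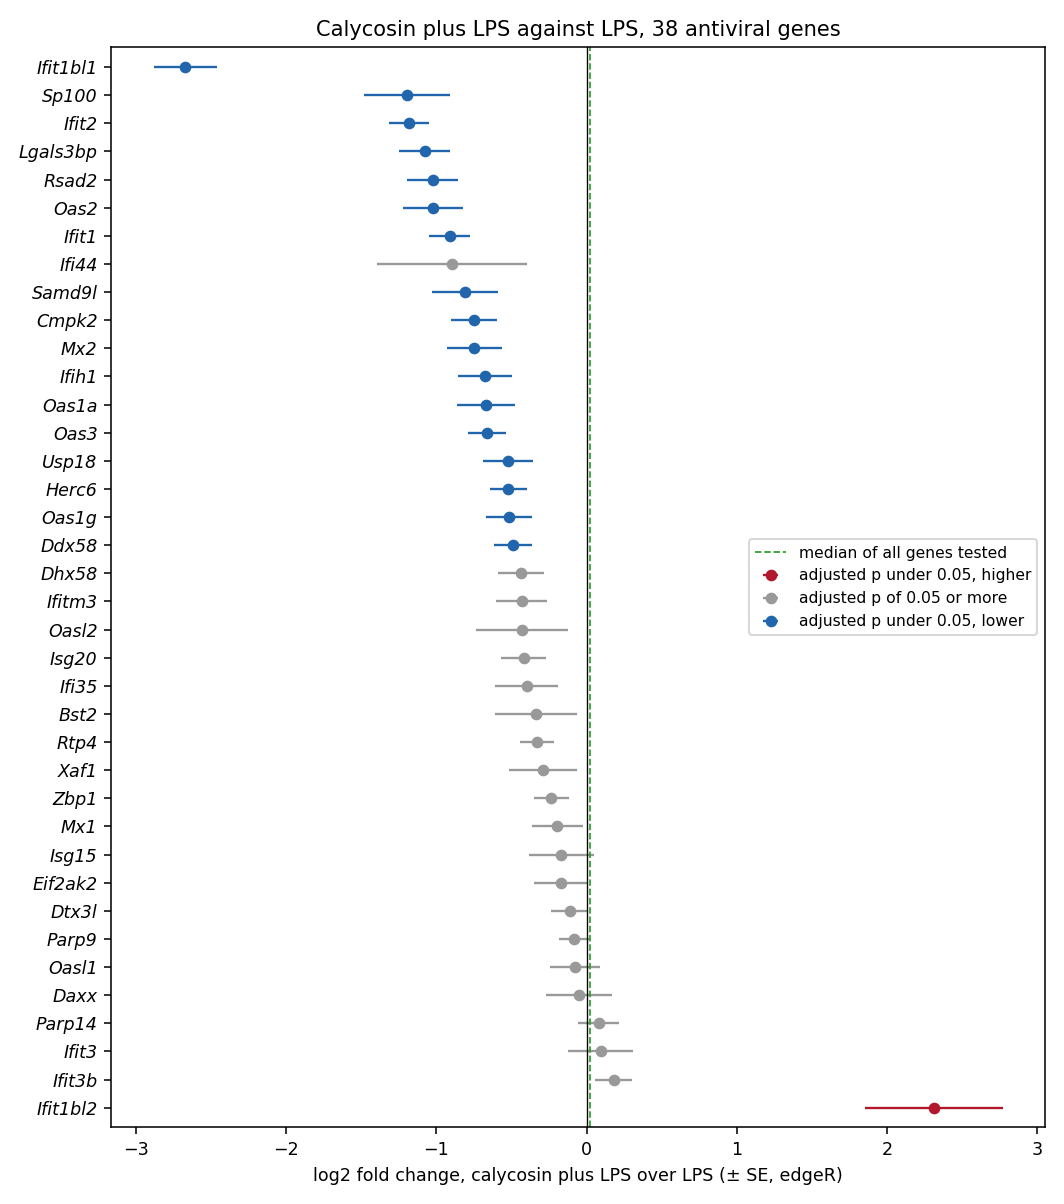
Change between calycosin plus LPS and LPS (log2, the first over the second) with its SE for each of the 38 genes, from lowest at the top to highest at the bottom, coloured by the call, with the median of all genes tested as a dashed line. Ifit1bl1 at -2.67 and Ifit1bl2 at 2.31 stand apart from the other 36, which lie between -1.19 and 0.18.

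The widest changes in both directions were in Ifit genes of the chromosome 19 cluster, with Ifit3b lying between them. Ifit1bl1 had 11.4, 15.7 and 12.7 CPM in calycosin plus LPS libraries, against 79.9, 84.8 and 89.7 CPM in LPS libraries (log2 fold change -2.67, SE 0.21, edgeR adjusted p = 7.29e-05), and the groups did not overlap. Ifit1bl2 had 13.6, 49.4 and 39.2 CPM in calycosin plus LPS libraries, against 6.78, 5.70 and 8.10 CPM in LPS libraries and 0.12, 0.16 and 0 CPM in vehicle libraries (2.31, SE 0.46, adjusted p = 0.0050). All 3 calycosin plus LPS libraries were above all LPS libraries, with replicate 1 closest to them. Without calycosin plus LPS replicate 1 the value was 2.69 and without replicate 2, which stands apart, 1.95. Ifit1bl2 was the least expressed of the 38 in TPM under LPS, and with calycosin plus LPS it had 6.24, 31.5 and 17.0 TPM.

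Because scaling cancels in a ratio of 2 genes within a library, the pair was also read that way, and the ratios given here and for other pairs were chosen after their values were seen. Ifit1bl2 had 1.19, 3.13 and 3.09 counts per count of Ifit1bl1 in calycosin plus LPS libraries, against 0.0849, 0.0672 and 0.0903 in LPS libraries. Relative to Ifit1, which lies 127 bases away, Ifit1bl2 had 0.0167, 0.0627 and 0.0490 counts per count, against 0.00464, 0.00391 and 0.00508 with LPS. Neither ratio overlapped between groups, and an exact permutation test of 3 libraries against 3 cannot give a two-sided p below 0.1, the value found for both. A window of 50 bases is shared by Ifit1bl1 and Ifit1bl2 at 6.36% and 4.22% of their transcribed positions, so most of their length tells the pair apart. How reads that fit several genes were counted is not given in the sources used here. Summed as 1 feature, Ifit1bl1 and Ifit1bl2 fell by 0.95 on the log2 scale (adjusted p = 0.0394).

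**Figure D4:**
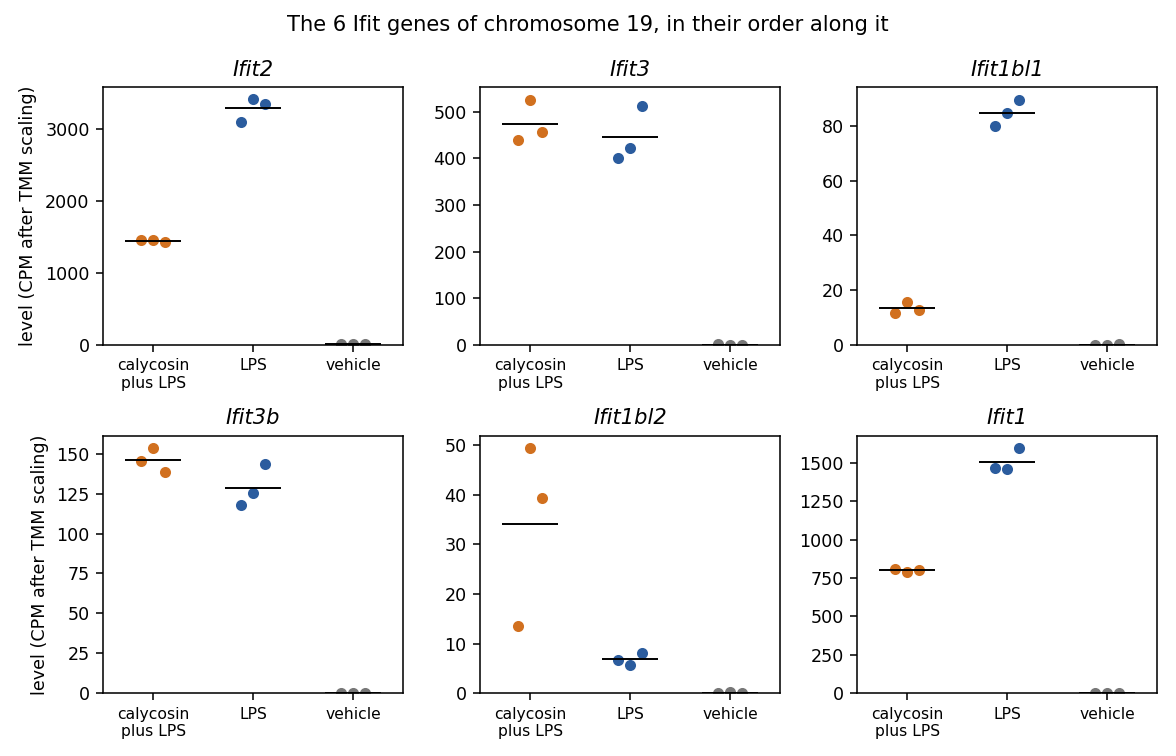
Level (CPM after TMM scaling, linear axes that start at 0 and differ between panels) of the 6 Ifit genes of chromosome 19 in each library, with a line at each group mean. Calycosin plus LPS libraries lay below those of LPS for Ifit2, Ifit1bl1 and Ifit1 and above them for Ifit1bl2, and Ifit3 and Ifit3b overlapped.

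The other 4 Ifit genes split between those that fell and those that did not pass. Ifit2, which forms complexes with other IFIT proteins, had 1459, 1456 and 1429 CPM in calycosin plus LPS libraries, against 3099, 3409 and 3348 CPM in LPS libraries (log2 fold change -1.18, SE 0.13, edgeR adjusted p = 0.00036). Ifit1 had 811, 787 and 800 CPM with calycosin plus LPS, against 1463, 1457 and 1595 CPM with LPS (-0.91, SE 0.13, adjusted p = 0.0012). Ifit3 and Ifit3b were at 0.09 (SE 0.22, adjusted p = 0.778) and 0.18 (SE 0.12, adjusted p = 0.304). Ifit2 had 3.31, 2.77 and 3.12 counts per count of its neighbour Ifit3 in calycosin plus LPS libraries, against 7.74, 8.07 and 6.52 in LPS libraries. Ifit3 and Ifit3b share 51.2% and 44.5% of their 50-base windows, so how their reads were divided is uncertain, and summed as 1 feature they stood at 0.11 (adjusted p = 0.661).

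Viperin and its neighbour both fell. Rsad2 had 3447, 3849 and 3695 CPM in calycosin plus LPS libraries, against 7380, 7734 and 7245 CPM in LPS libraries, without overlap (log2 fold change -1.02, SE 0.17, edgeR adjusted p = 0.0021). Cmpk2, a mitochondrial nucleotide kinase, had 1286, 1623 and 1416 CPM with calycosin plus LPS, against 2569, 2482 and 2231 CPM with LPS (-0.75, SE 0.15, adjusted p = 0.0056). In CPM both were higher in all LPS libraries than in any calycosin plus LPS library. In deposited TPM, Cmpk2 overlapped, with 637, 1084.5 and 633 TPM with calycosin plus LPS, against 1061.5, 1023 and 974 TPM with LPS. Cmpk2 had 0.373, 0.422 and 0.383 counts per count of Rsad2 with calycosin plus LPS, against 0.348, 0.321 and 0.308 with LPS. The call of Cmpk2 was lost under 4 of 23 alternatives, library totals and the fits of limma on deposited TPM. Relative to Parp14, Rsad2 had 1.70, 2.08 and 1.85 counts per count with calycosin plus LPS and 3.99, 4.03 and 4.07 with LPS. With calycosin plus LPS, Rsad2 averaged 1515 ± 382 TPM, still the highest mean of the 38.

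Of the oligoadenylate synthetase family, named for making the 2-5A that activates RNase L, 4 of 6 genes fell and 2 did not pass. Oas2 had 286, 315 and 206 CPM in calycosin plus LPS libraries, against 522, 462 and 656 CPM in LPS libraries (log2 fold change -1.02, SE 0.20, edgeR adjusted p = 0.0047). Oas3, Oas1a and Oas1g fell by 0.66, 0.67 and 0.52 on the log2 scale (adjusted p = 0.0043, 0.0268 and 0.0293). The calls of Oas1a and Oas1g were lost under 10 and 12 of 22 alternatives, among them library totals, TPM and most fits without 1 library, and that of Oas3 under 4 of 23. Oasl1, one of the 3 members nearest to no change, had 342, 462 and 366 CPM with calycosin plus LPS and 427, 403 and 405 CPM with LPS (-0.08, SE 0.17, adjusted p = 0.757), with overlap. Oasl2 was at -0.43 (SE 0.30, adjusted p = 0.320). Oas1a and Oas1g share 57.6% and 45.2% of their 50-base windows, and summed as 1 feature they fell by 0.60 (adjusted p = 0.0302).

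The 2 nuclear body proteins differed from each other. Sp100, a component of PML nuclear bodies that restricts DNA viruses, had 360, 278 and 386 CPM in calycosin plus LPS libraries, against 772, 778 and 791 CPM in LPS libraries (log2 fold change -1.19, SE 0.29, edgeR adjusted p = 0.0125). Daxx, a histone chaperone of the same bodies, had 293, 369 and 264 CPM with calycosin plus LPS and 285, 301 and 372 CPM with LPS (-0.05, SE 0.22, adjusted p = 0.885). The libraries of Sp100 did not overlap between groups and those of Daxx did. Counts of Sp100 per count of Daxx were 1.23, 0.754 and 1.46 with calycosin plus LPS, against 2.71, 2.59 and 2.13 with LPS. Without calycosin plus LPS replicate 2 the fall of Sp100 was 1.06 and just missed the threshold (adjusted p = 0.0501), and with both libraries that stand apart left out it was 1.04 (adjusted p = 9.59e-05).

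Lgals3bp, a secreted glycoprotein that binds galectins, was the remaining gene that fell at least 2-fold. It had 836, 780 and 903 CPM in calycosin plus LPS libraries, against 1890, 1776 and 1655 CPM in LPS libraries and 280, 273 and 406 CPM in vehicle libraries (log2 fold change against LPS -1.08, SE 0.17, edgeR adjusted p = 0.0018). This call and that of Ifit1bl1 passed under every alternative run. Calls of Ifit2, Sp100 and Ifit1bl2 each failed under 1 alternative, with adjusted p = 0.0546, 0.0501 and 0.0551 there. Those of Rsad2, Oas2 and Ifit1 each failed under the 3 fits of limma on deposited TPM, with adjusted p of up to 0.216 for Rsad2 and 0.340 for Oas2.

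The remaining falls were of less than 2-fold. Samd9l, a translation inhibitor, fell by 0.81 (edgeR adjusted p = 0.0207), Mx2 by 0.75 (0.0141), Ifih1 by 0.67 (0.0198), Usp18 by 0.52 (0.0432), Herc6 by 0.52 (0.0129) and Ddx58 by 0.49 (0.0169) on the log2 scale. Of 23 alternatives, Usp18 lost its call under 14, Ddx58 under 9, Herc6 and Ifih1 under 7 each, Samd9l under 6 and Mx2 under 5. Mx2, which GENCODE classes as a polymorphic pseudogene, fell relative to its neighbour Mx1: it had 0.613, 0.570 and 0.582 counts per count of Mx1 with calycosin plus LPS, against 0.868, 0.878 and 0.845 with LPS. Mx1 itself had 207, 219 and 234 CPM with calycosin plus LPS, against 240, 243 and 271 CPM with LPS, and was not called (-0.19, SE 0.17, adjusted p = 0.416). Ifi44 had the largest SE of the 38: its libraries were at 993, 492 and 1210 CPM with calycosin plus LPS and at 1915, 1802 and 1300 CPM with LPS (-0.90, SE 0.50, adjusted p = 0.207). With both libraries that stand apart left out, Ifi44 was at -0.58 and passed (adjusted p = 0.0329).

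PARP9, DTX3L and PARP14, ADP-ribosyltransferases and a ubiquitin ligase that act with the interferon response, gave no gene that passed. Parp14 had 2025, 1847 and 1998 CPM in calycosin plus LPS libraries, against 1851, 1921 and 1780 CPM in LPS libraries and 26.6, 25.8 and 33.3 CPM in vehicle libraries (log2 fold change against LPS 0.08, SE 0.14, edgeR adjusted p = 0.696). Parp9 stood at -0.08 (SE 0.10) and Dtx3l at -0.11 (SE 0.13). Libraries of the groups overlapped for all 3. Dtx3l and Parp9 overlap each other, and the strandedness of the counts is not given, so reads from the shared 682 bases cannot be told apart. Isg15 (-0.17, SE 0.22), Eif2ak2 (-0.17, SE 0.18) and Zbp1 (-0.23, SE 0.12) also did not pass, nor did Dhx58 (adjusted p = 0.0572), Isg20, a ribonuclease (0.0586), and Rtp4 (0.0531), which came close. With both libraries that stand apart left out, Zbp1, Dhx58, Isg20 and Rtp4 passed as lower (edgeR adjusted p = 0.0349, 0.0054, 0.0162 and 0.0240). Bst2 was at -0.34 against LPS (edgeR adjusted p = 0.385), and with those libraries left out it passed at -0.56 (adjusted p = 0.00115).

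How many members were called lower depended on the scaling. With library totals in place of TMM, 9 were lower and 3 higher, the added ones being Parp14 at 0.38 and Ifit3b at 0.48. With limma on deposited TPM, 4 were lower. Library totals put the median log2 fold change of all genes at 0.33, a shift that is alike for every gene. The members' median less that of all genes was -0.46 with TMM, and -0.42, -0.29 and -0.14 with the 3 TPM fits. With both libraries that stand apart left out, 26 members were lower and 1 higher. Leaving out 1 of the 6 libraries compared gave 10 to 14 lower, the fewest without LPS replicate 1 (11), LPS replicate 2 (10) or calycosin plus LPS replicate 1 (10). Vehicle libraries enter the same model, and leaving 1 out, an alternative chosen after seeing the data, gave 16 lower without replicate 1 or 2 and 23 without replicate 3, which stands apart. Oasl2, Dhx58, Isg20, Ifitm3, Rtp4 and Ifi44 were the 6 added. 

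**Figure D5:**
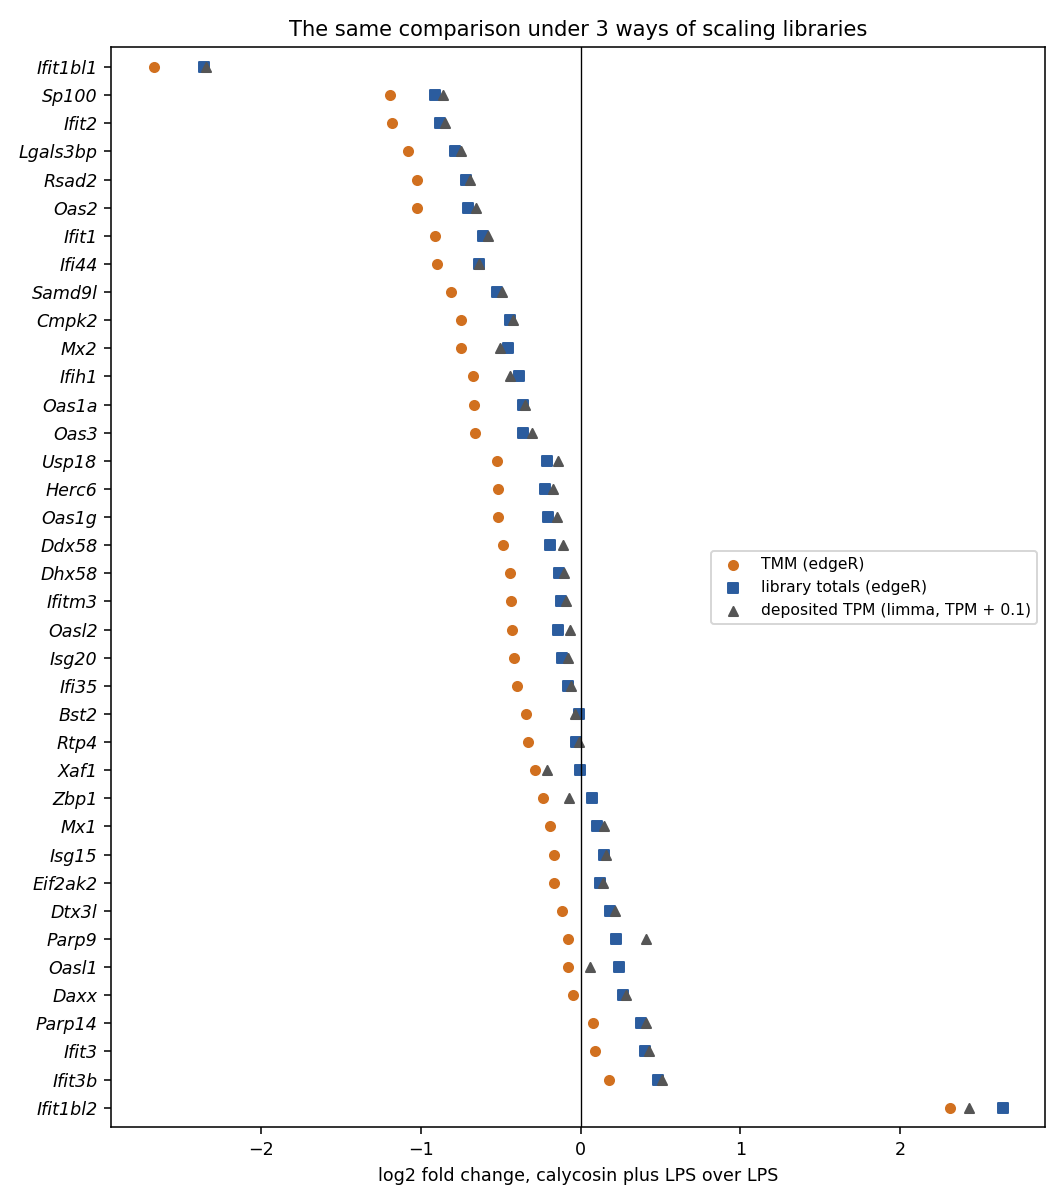
Log2 ratio of calycosin plus LPS to LPS for each of the 38 genes under TMM scaling (circles), library totals (squares) and deposited TPM with limma and a pseudocount of 0.1 (triangles). The squares and most triangles lie about 0.3 to the right of the circles, which puts Mx1, Isg15, Eif2ak2, Dtx3l, Parp9, Oasl1 and Daxx above 0 in both, and Zbp1 with library totals.

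Genes upstream of the antiviral set were read from a separate list of 13 genes of TLR4 and nucleic acid sensing. With LPS against vehicle, 8 rose and 2 fell, and with calycosin plus LPS against LPS, 3 rose and 3 fell. Among all genes tested the shares were 27.3% and 28.9% with LPS, and 16.1% and 12.9% with calycosin plus LPS, so the calycosin counts of this list lie near the background. Cd14, the LPS co-receptor, had 473, 587 and 457 CPM in calycosin plus LPS libraries, against 1305, 1196 and 1244 CPM in LPS libraries and 551, 555 and 435 CPM in vehicle libraries (log2 fold change against LPS -1.30, SE 0.15, edgeR adjusted p = 0.00038). Its calycosin plus LPS libraries were lower than all LPS libraries and overlapped with vehicle. Tmem173, which encodes the adaptor STING, fell by 1.08 (adjusted p = 0.00019), and Mavs, the mitochondrial adaptor of RIG-I and MDA5, rose by 0.92 (adjusted p = 0.0011) against LPS. Compared with vehicle, Mavs stood at -1.04 with LPS (edgeR adjusted p = 0.00012) and at -0.12 with calycosin plus LPS (adjusted p = 0.471). Against vehicle, LPS raised Tlr3, the endosomal receptor for double-stranded RNA, by 6.35, the kinase Ikbke by 4.55 and Tbk1 by 2.26, and with calycosin plus LPS these 3 were 5.74, 4.61 and 1.49 above vehicle. Against LPS, Tbk1 was called lower with calycosin plus LPS (-0.77, edgeR adjusted p = 0.0050), a call not followed under the alternatives. Tlr3 (-0.61, adjusted p = 0.0695) and Ikbke (0.05, adjusted p = 0.825) did not pass.

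In the list of 11 genes from interferon beta to its receptor and JAK-STAT factors, 10 rose with LPS against vehicle, and with calycosin plus LPS against LPS 2 rose and 3 fell. Of all genes tested, 27.3% rose with LPS, and 16.1% rose and 12.9% fell with calycosin plus LPS. Ifnb1, interferon beta itself, had 4.32, 6.43 and 5.67 CPM in calycosin plus LPS libraries, 5.05, 3.03 and 3.61 CPM in LPS libraries, and 0.0402, 0 and 0 CPM in vehicle libraries. Calycosin plus LPS and LPS overlapped for it (log2 fold change 0.49, SE 0.32, edgeR adjusted p = 0.277). Stat2 was at 468, 500 and 465 CPM with calycosin plus LPS, against 500, 496 and 433 CPM with LPS (0.00, SE 0.15, adjusted p = 0.986). Neither gene passed.

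Irf9, which encodes the DNA-binding partner of STAT2, and Irf7, the amplifying factor, were both lower. Irf9 had 62.9, 77.2 and 67.4 CPM in calycosin plus LPS libraries, against 128, 124 and 118 CPM in LPS libraries and 27.4, 28.8 and 29.6 CPM in vehicle libraries (log2 fold change against LPS -0.84, SE 0.11, edgeR adjusted p = 0.00059). Irf7 had 317, 300 and 343 CPM with calycosin plus LPS, against 627, 567 and 546 CPM with LPS and 8.71, 8.31 and 9.64 CPM with vehicle (-0.86, SE 0.11, adjusted p = 0.00064). Jak1 fell by 0.45 (adjusted p = 0.0095). Socs1, the feedback inhibitor of JAK kinases, was higher, with 12.0, 18.2 and 14.8 CPM, against 7.51, 8.32 and 6.52 CPM with LPS (1.01, SE 0.18, adjusted p = 0.0034), and Irf1 rose by 0.80 (adjusted p = 0.0021). All 5 of these calls had groups that did not overlap in CPM, while in deposited TPM those of Jak1 overlapped. With deposited TPM the falls of Cd14, Tmem173, Irf9, Irf7 and Jak1 no longer passed, nor did that of Jak1 with library totals, while the rise of Socs1 passed under every alternative run. Whether these genes bear on the levels of the antiviral members was not tested.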

How the data were processed

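Raw counts per gene and TPM were deposited by the authors for 9 libraries of polyadenylated RNA. Per the submitters' processing notes, Trimmomatic 0.36, HISAT2 2.0 and StringTie 1.3.3b were used with genome build mm10. The read counter, strandedness and treatment of reads that fit several genes are not given in the sources at hand. The counts deposited by the authors are whole numbers without normalization, and were used for all main comparisons. The TPM values deposited by the authors, which correct for length and depth, served for comparing genes and as an alternative.

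With edgeR 4.0.16 in R 4.3.3, genes were filtered with filterByExpr, scaled by TMM and fitted in 1 model over the 9 libraries, each group having its own term. Pairs of groups were compared with the two-sided quasi-likelihood F test, with p adjusted by the Benjamini-Hochberg method over 14458 genes and a threshold of 0.05. SEs were derived from the test statistic. The step was tested on simulated counts. A count of 0 allows up to 3 counts, or 0.0602 to 0.137 CPM. Alternatives were DESeq2 1.42.0, limma 3.58.1 on log2(TPM + 1) and log2(TPM + 0.1), other scalings and filters, and libraries left out. No 2 libraries were duplicates of each other.

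Values per library are given for the 6 largest rises with LPS, the called changes with calycosin of largest size (up to 6 each way), the 4 highest TPM with LPS and the 3 members nearest to no change. Pathway genes named are Ifnb1, Irf7, Stat2, Irf9 and up to 3 called genes per list, and 1 further gene of this rule is not reported here. Others with values per library were chosen after their values were seen. Members and lists were chosen with earlier results of these data known. The marker Itgam, which has 2 identifiers, was left out. Promoters came from RefSeq (GRCm38.p6), positions from GENCODE M21.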

Additional observations from a re-analysis of the deposited data

How the results depend on the processing

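Rises over vehicle, with LPS or with calycosin plus LPS, kept their direction for all 38 genes under every alternative, and 36 of 38 passed with library totals and with limma on TPM (35 for calycosin plus LPS with TPM without filter). Against LPS, the 17 lower and 1 higher members became 9 and 3 with library totals. With limma they became 4 and 1 on log2(TPM + 0.1) or log2(TPM + 1), and 4 and 0 on TPM without filter. They became 26 and 1 with both libraries that stand apart left out, and 27 and 1 with the mitochondrial percentage as covariate. With Ifit3 and Ifit3b, Oas1a and Oas1g, and Ifit1bl1 and Ifit1bl2 summed as pairs of paralogs, they became 16 and 0. Ifit1bl1 and Ifit1bl2, 1 feature there, share only 6.36% and 4.22% of their 50-base windows and moved in opposite directions. Without 1 of the 9 libraries, 10 to 23 were lower, the most without vehicle replicate 3. Leaving out vehicle libraries here was chosen after seeing the data. Apart from the summed paralogs, the cause was not tested. The fit with a replicate block gave 16 lower and 1 higher. Same-numbered libraries did not deviate together throughout (correlations from -0.17 to 0.36). With 3 libraries per group this cannot show whether they shared a culture or day.

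No called gene reversed. Uncalled genes crossed 0 as follows. With library totals, Oasl1 was at 0.24, Zbp1 at 0.070, Eif2ak2 at 0.12, Isg15 at 0.14, Mx1 at 0.10, Parp9 at 0.22, Dtx3l at 0.18 and Daxx at 0.27. With limma on log2(TPM + 0.1), Oasl1 was at 0.059, Eif2ak2 at 0.14, Isg15 at 0.16, Mx1 at 0.15, Parp9 at 0.41, Dtx3l at 0.21 and Daxx at 0.29. With log2(TPM + 1), filtered or not, these were 0.059, 0.14, 0.16, 0.14, 0.40, 0.21 and 0.28. Daxx was at 0.016 with upper quartile factors, and without 1 library it ran from -0.19 to 0.078 and Oasl1 from -0.21 to 0.012. Among pathway genes, Stat2 was at -0.043 with DESeq2 or its size factors and at -0.0064 with both libraries that stand apart left out, and ran from -0.056 to 0.045 without 1 library.

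Counts over all genes moved with scaling. For LPS over vehicle, 3954 higher and 4180 lower became 1879 and 7744 with library totals, 1531 and 7242 with log2(TPM + 0.1), 1529 and 7197 with log2(TPM + 1), 1503 and 6136 with TPM without filter, and 3163 and 5373 with upper quartile factors. For calycosin plus LPS over LPS, 2333 higher and 1871 lower became 3418 and 710 with library totals, 1581 and 319 with log2(TPM + 0.1), 1204 and 313 with log2(TPM + 1), 897 and 300 with TPM without filter, and 3486 and 3292 with the mitochondrial covariate, and without 1 library the lower ones numbered 1224 to 2576. For calycosin plus LPS over vehicle, 3672 higher and 3413 lower became 2034 and 5143 with library totals, 1485 and 3480 with log2(TPM + 0.1), 1482 and 3677 with log2(TPM + 1), 1412 and 2794 with TPM without filter, and 3043 and 4269 with upper quartile factors. Depth limits only vehicle levels of the lowest members, such as Mx1 with 2 counts over 3 libraries.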
